A study of Danio rerio with 20 samples.

Results

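Exercise in a swim tunnel, where a fish has to keep swimming against flowing water, was compared with no exercise in the brain of old zebrafish (Danio rerio). The comparison rests on 10 of the 20 sequenced libraries, those labelled with an age of 3 years: 5 from exercised fish and 5 from fish with no perturbation. The fish of both groups were males with the strain label AB JxTu, and both groups shared the tissue label (brain), the RNA type (total RNA) and the library kit. The other 10 libraries come from fish of 1 year, again 5 exercised and 5 unexercised, and serve here for a comparison of the exercise difference between ages. The labels give neither the length or speed of the swim nor the time of day at sampling, and they do not say whether a library holds 1 brain or a pool. P-values therefore measure the spread between these libraries. Between pairs of libraries within a 3-year group, squared differences were 30.6 to 86.7 times the counting variance per gene. How much of that spread is technical was not tested.

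Several gene systems that are known to respond to activity, light or metabolic state in vertebrate brain serve to order the results. The circadian clock is a loop in which the activators CLOCK, NPAS2 and ARNTL turn on the period and cryptochrome repressors, and in zebrafish light acts on the clock of most tissues and induces the repressor per2. The brain makes its own cholesterol, through a chain of enzymes under the control of the transcription factor SREBP, and sterol hydroxylases such as CYP27A1 turn cholesterol into oxysterols and bile acid precursors. Immediate early genes such as egr1 and npas4 are switched on within minutes of neuronal activity in mammals and fish.

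The 3-year libraries held 25.2 to 34.6 M counts over genes (M, 1000000), and groups overlapped on the first principal component, which carried 20.3% of their variance. Of the brain marker lists, 28 of 28 neuronal, 22 of 24 radial glial and 17 of 17 oligodendrocyte identifiers passed the filter on low counts. That filter was applied over all 20 libraries, and none of these identifiers was without counts in all 10 of the 3-year libraries. Some libraries stood apart in genes of tissues next to the brain. As a score for a list, log2 CPM values (counts per 1000000 counts of a library) of its measured genes were averaged within each library. The retina and pineal list scored 3.25 and 3.33 in exercised replicates 2 and 4 and between -0.17 and 0.69 in the other 8 libraries. Its summed level was 453.8 and 523.7 CPM in those libraries, 50.6 to 66.0 CPM in the other exercised ones and 46.8 to 73.0 CPM in unexercised ones. Of its 43 matched identifiers 27 passed the filter, and the opsin opn1mw2 had no count in any of the 10 libraries. The pituitary list, with 7 of 16 identifiers measured, summed to 321.6 CPM in exercised replicate 1 and to 6.403 to 19.9 CPM in the others. The epidermis list, with 25 of 29 measured and cyt1l at 0 throughout, summed to 2439 CPM in unexercised replicate 3 and to 424 to 663 CPM elsewhere. Skeletal muscle genes, with 28 of 31 measured, summed to 164, 124, 494, 1079 and 611 CPM in unexercised and 1473, 126, 118, 652 and 118 CPM in exercised replicates, so that they were high in libraries of both groups. A set of 22 hox genes, which mark hindbrain and spinal cord, was put together after their values had been seen. It summed to 81.6 to 133.9 CPM in unexercised libraries and to 67.2 to 115.3 CPM in exercised ones, except for exercised replicate 3 at 2.71 CPM. All 22 hox genes had negative log2 fold changes for exercise, with a median of -0.60, and 21 had them without exercised replicate 3, with a median of -0.28. The part of these tissues in the results below was not tested. Values are given below without exercised replicates 2 and 4, and without 4 libraries that stood apart in retina, pituitary or epidermis genes (exercised replicates 1, 2 and 4 and unexercised replicate 3). Unexercised replicates 4 and 5, with many muscle counts, and exercised replicate 3, with few hox counts, are kept in both of these fits. Both hold fewer libraries than the full fit, and the one without the 4 libraries keeps only replicates 3 and 5 of the exercised group. Their adjusted p and counts are therefore not on the same footing as those of the full fit.

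Of 21148 genes tested, 6 differed between exercised and unexercised 3-year fish at an adjusted p below 0.05 (edgeR's quasi-likelihood test with Benjamini-Hochberg adjustment), which is 0.0284% of the genes tested (0.0142% in each direction). The clock repressor PER2, the ubiquitin ligase PELI3 and the membrane-curving protein BAIAP2 (ENSDARG00000103333) rose. The sterol hydroxylase genes cyp27a1.1 and CYP27A1 (ENSDARG00000069186) and the Polycomb subunit SUZ12 (ENSDARG00000098924) fell. No other identifier with the symbol BAIAP2 or SUZ12 was among the 6, and values of such identifiers are not described here. In each of the 6 genes the 5 exercised libraries did not overlap the 5 unexercised ones. Over all genes, 183 were higher (0.865%) and 185 lower (0.875%) without overlap between the groups, 1.74% in all. A share of 8.07% had an unadjusted p below 0.05, with 3.95% higher and 4.11% lower after exercise. Without exercised replicates 2 and 4 it was 2.91% higher and 3.69% lower, and without the 4 libraries 2.25% and 3.22%. In these bulk samples a lower level of a transcript in all cells and fewer cells that carry it cannot be told apart.

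The most certain difference was in cyp27a1.1, a copy of the gene for the mitochondrial sterol 27-hydroxylase of mammals. The 5 unexercised libraries held 20.0, 21.3, 20.8, 22.2 and 21.4 CPM, and the 5 exercised ones 10.6, 10.8, 12.9, 12.4 and 13.3 CPM. The highest exercised library thus lay well below the lowest unexercised one. The log2 fold change was -0.82 ± 0.08 (standard error, n = 5 per group; adjusted p = 5.81e-05, edgeR). The gene passed in each of 10 fits that left out 1 of the 3-year libraries, with adjusted p between 9.55e-05 and 0.00042. It also passed without exercised replicates 2 and 4 (adjusted p = 0.00416), and without the 4 libraries that stood apart in retina, pituitary or epidermis genes (adjusted p = 0.0238). Its log2 fold changes in these fits were -0.78 ± 0.09 and -0.70 ± 0.10.

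A second copy, CYP27A1 (ENSDARG00000069186), had a low level. It was read at 3.05, 6.79, 6.28, 5.71 and 2.18 CPM in unexercised and at 1.21, 1.32, 1.57, 1.51 and 1.93 CPM in exercised libraries. Unexercised replicates 1 and 5 lay nearest to the exercised group, which varied little. The log2 fold change was -1.67 ± 0.28 (adjusted p = 0.0481, edgeR), and the call was lost in 8 of the 10 fits that left out a 3-year library. The adjusted p was 0.308 without exercised replicates 2 and 4 and 0.758 without the 4 libraries. Log2 fold changes there were -1.61 ± 0.36 and -1.34 ± 0.43. Another copy, CYP27A1 (ENSDARG00000088013), was read at 11.6 to 20.4 CPM in unexercised and 6.37 to 11.9 CPM in exercised libraries (log2 fold change -0.90 ± 0.24, adjusted p = 0.266). Its groups overlapped through exercised replicate 5, the highest of its group at 11.9 CPM. No source used here says how reads shared by these related copies were counted, so the values of single copies are uncertain.

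The other 26 measured genes of the sterol hydroxylation and efflux list had values in both directions. Of all 29 tested, 3 had an unadjusted p below 0.05 with positive and 4 with negative log2 fold changes, and the median was 0.04. These were 10.3% and 13.8% of the list, beside 3.95% and 4.11% of all genes. The negative ones were the CYP27A1 copies described above and CYP7A1. Without the 4 libraries, 2 members were positive and 2 negative by the same rule, 6.90% each way. Shares of all genes in that fit were 2.25% and 3.22%. ABCA1, the pump that exports cholesterol from cells, was at 88.0 ± 8.90 CPM (SD, n = 5) without and 112 ± 6.56 CPM with exercise. Its groups did not overlap, but the gene missed the threshold (log2 fold change 0.35 ± 0.10, adjusted p = 0.284). CYP7A1, the first enzyme of the classic bile acid pathway in mammalian liver, averaged 2.82 CPM in unexercised and 0.67 CPM in exercised fish, with a log2 fold change of -2.07 ± 0.75 and an unadjusted p of 0.0124.

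PER2 encodes a repressor of the clock that light induces in zebrafish. Its level was 80.9, 78.3, 87.6, 83.9 and 87.2 CPM in the unexercised libraries and 150.5, 139, 189.6, 167 and 168 CPM in the exercised ones. Unexercised libraries kept within a narrow band, and every exercised library lay far above it (log2 fold change 0.96 ± 0.14, adjusted p = 0.0107, edgeR). The call held in 8 of 10 fits with a 3-year library left out, and the adjusted p reached 0.0583 in the others, those without unexercised replicate 3 or exercised replicate 5. It was also lost without exercised replicates 2 and 4 (adjusted p = 0.0817) and without the 4 libraries (adjusted p = 0.108). The log2 fold changes in these smaller fits were 1.02 ± 0.16 and 1.11 ± 0.19. At 1 year the gene's level was 175 ± 53.6 CPM in unexercised and 182 ± 11.99 CPM in exercised fish, so that the 3-year unexercised group was the lowest of the 4 groups. Because the labels give no time of day at sampling, its part in the values of PER2 and of the clock genes below was not tested.

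PELI3 belongs to the pellino ubiquitin ligases, which act in Toll-like and interleukin receptor signalling in mammals. Unexercised libraries were at 59.8, 58.4, 52.3, 54.2 and 58.5 CPM and exercised ones at 76.0, 96.1, 89.8, 98.7 and 101 CPM, with exercised replicate 1 the lowest of its group. The log2 fold change was 0.70 ± 0.10 (adjusted p = 0.0107, edgeR), and 8 of 10 fits with a library left out kept the call. The adjusted p was 0.159 without exercised replicates 2 and 4 and 0.115 without the 4 libraries, so that the call was lost in both. Log2 fold changes in these smaller fits were 0.65 ± 0.12 and 0.72 ± 0.13. BAIAP2 (ENSDARG00000103333) is the zebrafish counterpart of IRSp53, a protein of mammalian dendritic spines that bends membrane and recruits actin regulators. It was at 49.7, 41.5, 44.8, 48.6 and 52.5 CPM without exercise and at 80.7, 69.6, 129, 133 and 136 CPM with it. The exercised group was split, with replicates 1 and 2 well below replicates 3 to 5, and all 5 lay above the unexercised libraries. The log2 fold change was 1.21 ± 0.20 (adjusted p = 0.0481, edgeR), and the call held in 2 of 10 fits that left out a library. Without exercised replicates 2 and 4 it was lost (adjusted p = 0.09498, edgeR). Without the 4 libraries, where only exercised replicates 3 and 5 remain, it held (adjusted p = 0.0492, edgeR). Log2 fold changes of BAIAP2 in these smaller fits were 1.28 ± 0.21 and 1.46 ± 0.23.

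SUZ12 (ENSDARG00000098924) is a core subunit of the Polycomb complex that methylates histone H3 at repressed genes. The unexercised libraries held 76.7, 103, 117, 85.8 and 105 CPM and the exercised ones 66.9, 64.7, 65.7, 67.4 and 68.8 CPM. The exercised values were nearly equal, while the unexercised ones spread widely above them. The log2 fold change was -0.55 ± 0.09 (adjusted p = 0.0481, edgeR), and the call held in 2 of 10 fits that left out a library. In the fit without exercised replicates 2 and 4 the adjusted p was 0.308, and in that without the 4 libraries 0.532. Log2 fold changes there were -0.54 ± 0.11 and -0.46 ± 0.12.

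**Figure D1:**
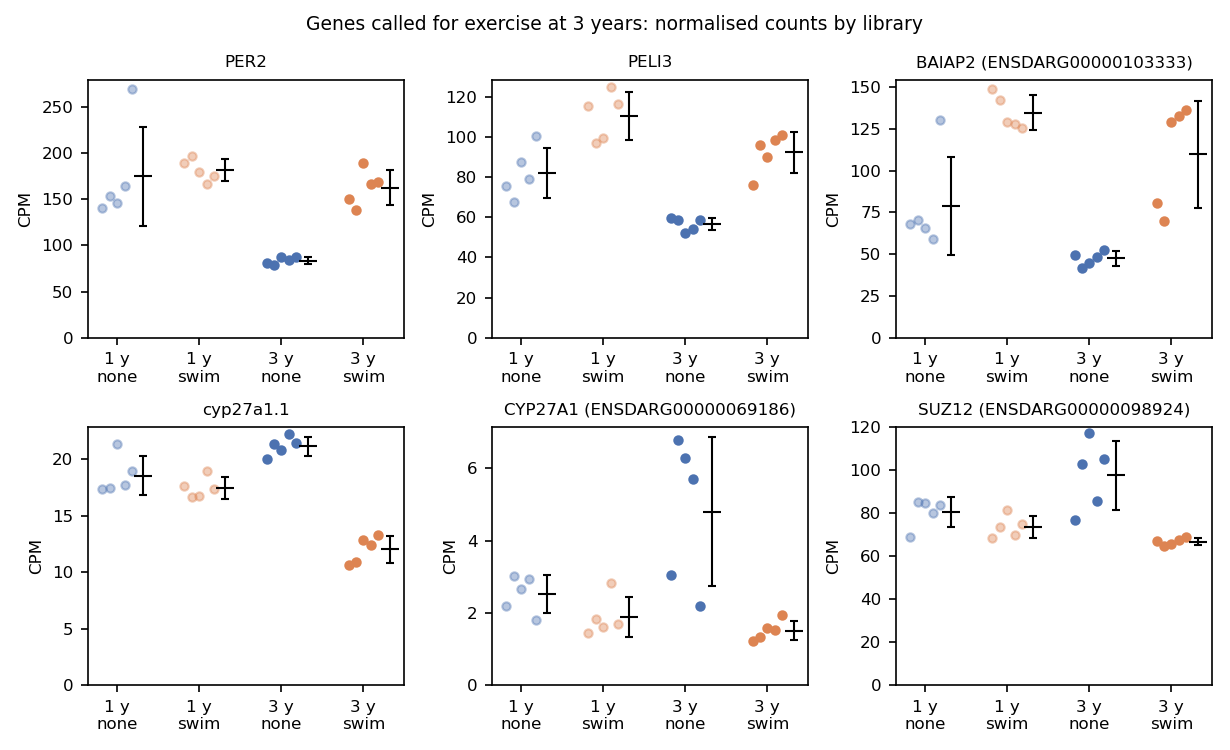
Normalised counts (CPM, vertical axis from 0) of the 6 called genes in each library by age and treatment; points are libraries, and the bar beside them is the mean with its SD (n = 5). In the 3-year groups, drawn in full colour, exercised and unexercised libraries do not overlap for any of the 6 genes; PER2 is at 78.3 to 87.6 CPM without and 139 to 189.6 CPM with exercise.

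The genes with the next smallest p, 24 of them under the rule for named genes, had adjusted p from 0.114 to 0.232 with edgeR and so did not pass. DESeq2 called all 24. ULK2, a kinase that starts autophagy, was read at 92.1, 73.5, 79.4, 78.8 and 95.6 CPM in unexercised and 126, 132, 149, 136 and 155 CPM in exercised libraries, without overlap (log2 fold change 0.74 ± 0.14, adjusted p = 0.146). It passed in the fit on the 10 3-year libraries alone, with limma voom and with DESeq2 (adjusted p = 0.00212). The S6 kinase gene rps6kb1a, which acts below mTORC1, was at 7.52 ± 1.51 CPM in unexercised and 14.5 ± 3.35 CPM in exercised fish (log2 fold change 0.95 ± 0.19, adjusted p = 0.15). INHBA (ENSDARG00000024759), the activin beta A subunit, was at 4.01, 4.14, 4.09, 4.60 and 5.96 CPM against 8.21, 9.13, 8.69, 13.0 and 13.0 CPM. All exercised libraries exceeded all unexercised ones for both genes, and for INHBA the log2 fold change was 1.19 ± 0.23 (adjusted p = 0.146). Levels of spaw, the Nodal ligand of left-right patterning in the zebrafish embryo, were 0.299 to 0.803 CPM in unexercised libraries and 3.79, 0.761, 4.02, 2.88 and 0.877 CPM in exercised ones. Exercised replicates 2 and 5 thus lay at the level of the unexercised group, and the log2 fold change was 2.15 ± 0.43 (adjusted p = 0.146).

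The synaptotagmin gene syt13, whose family acts in membrane traffic, was at 98.3, 84.0, 93.7, 88.6 and 98.4 CPM without and 111, 125, 140.1, 126 and 135 CPM with exercise. It had the smallest p outside the called genes (log2 fold change 0.46 ± 0.09, adjusted p = 0.114), and its groups did not overlap. The cofilin phosphatase ssh2b, which frees cofilin to sever actin filaments, was at 22.4 ± 5.14 and 46.1 ± 12.9 CPM (log2 fold change 1.04 ± 0.24). ARHGAP19, a GTPase-activating protein, was at 0.562 ± 0.322 and 2.36 ± 1.25 CPM, with unexercised replicate 2 above exercised replicate 2. The endothelial membrane protein heg1, needed for heart and vessel growth in zebrafish, was at 26.0 ± 3.33 and 42.0 ± 3.40 CPM. The matrix protein tinagl1 was at 20.2 ± 3.69 and 42.3 ± 8.35 CPM. For ssh2b, heg1 and tinagl1 every exercised library exceeded every unexercised one. The vitamin B12 trafficking gene mmadhca was at 8.69 to 10.9 CPM in unexercised and 16.85 to 24.7 CPM in exercised libraries (log2 fold change 1.13 ± 0.25, adjusted p = 0.215), and it passed in the fit on the 3-year libraries alone. Values of tasor2 (38.9 ± 3.90 and 68.0 ± 10.8 CPM), a relative of the silencing factor TASOR, and cicb (261 ± 21.5 and 324 ± 26.9 CPM), a copy of the repressor capicua, did not overlap between the groups. For ABCF2 (ENSDARG00000038785) and the guanylate-binding protein gbp3 they did. The gbp3 values of 8.49, 23.6, 9.31, 8.33 and 6.88 CPM without and 19.1 to 34.8 CPM with exercise overlapped only through unexercised replicate 2.

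The remaining genes had negative values. ALDH1L2, the mitochondrial formyltetrahydrofolate dehydrogenase, was at 19.9 ± 2.88 CPM in unexercised and 14.6 ± 1.28 CPM in exercised fish (log2 fold change -0.44 ± 0.10, adjusted p = 0.215). Its groups overlapped through exercised replicate 1, at 16.85 CPM. AFMID, which hydrolyses formylkynurenine, was at 17.5 to 21.0 CPM in unexercised and 11.2 to 16.2 CPM in exercised libraries (log2 fold change -0.51 ± 0.11, adjusted p = 0.232). MTRFR, a release factor for stalled mitochondrial ribosomes, was at 11.3 ± 1.55 and 7.86 ± 1.19 CPM. LNPK, which shapes junctions of the endoplasmic reticulum, was at 45.6 to 57.1 CPM in unexercised and 38.3 to 44.5 CPM in exercised libraries. The chromatin-linked regulator hcfc2 was at 28.2, 19.4, 23.6, 19.9 and 21.2 CPM against 16.6, 17.3, 18.4, 17.0 and 16.3 CPM. The RNA-binding protein gene rbm34 was at 15.1 ± 1.28 and 10.98 ± 0.871 CPM, and the SUMO-binding protein gene simc1 at 9.53 ± 2.07 and 5.83 ± 0.752 CPM. AFMID, LNPK, hcfc2, rbm34 and simc1 did not overlap between groups. ZSWIM2 (1.44 ± 0.333 and 0.629 ± 0.179 CPM), tmem79b (6.24 ± 2.39 and 2.82 ± 0.469 CPM) and si:dkey-51a16.9 (27.4 ± 1.78 and 21.2 ± 1.28 CPM) were lower in every exercised library as well, with adjusted p of 0.215, 0.232 and 0.146.

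The clock list held 45 measured genes, of which PER2 was the single call. In all, 12 members had an unadjusted p below 0.05 with a positive and 3 with a negative log2 fold change, or 26.7% and 6.67% of the list beside 3.95% and 4.11% of all genes. The median log2 fold change was 0.10, beside 0.00 over all genes tested, and 32 members had positive values. Among the activators, CLOCK (ENSDARG00000003631) was at 26.4, 30.1, 27.4, 29.3 and 27.1 CPM without and 29.9, 35.3, 36.9, 35.9 and 42.4 CPM with exercise. Exercised replicate 1 fell within the unexercised range, and the gene did not pass (log2 fold change 0.36 ± 0.11, adjusted p = 0.33). Its partner-like activator npas2 averaged 10.5 and 20.4 CPM (log2 fold change 0.96 ± 0.33, unadjusted p = 0.00837).

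Repressors of the clock other than PER2 were less uniform. The period genes PER1 (ENSDARG00000012499), PER1 (ENSDARG00000056885) and PER3 had log2 fold changes of -0.05, 0.05 and -0.09, each smaller than its standard error. CRY1 (ENSDARG00000011583), a cryptochrome, averaged 23.6 and 33.4 CPM (log2 fold change 0.50 ± 0.20, unadjusted p = 0.0194), and cry3b averaged 226 and 291 CPM (0.37 ± 0.13, unadjusted p = 0.00997). NR1D2, a Rev-erb receptor that represses the activators in mammals, was at 163, 159, 138, 129 and 120.4 CPM without and 109, 126, 90.7, 80.1 and 81.4 CPM with exercise. Only exercised replicate 2 lay above the lowest unexercised library, and the gene missed the threshold (log2 fold change -0.54 ± 0.13, adjusted p = 0.239). BHLHE41, another repressor of the loop, averaged 110 and 88.1 CPM without overlap (-0.32 ± 0.11, unadjusted p = 0.00971). Among output factors, HLF was at 9.95, 9.91, 13.9, 11.4 and 19.2 CPM against 18.2, 18.4, 33.4, 24.5 and 26.5 CPM, overlapping through unexercised replicate 5 (log2 fold change 0.91 ± 0.22, adjusted p = 0.239). The related factor tefb averaged 68.1 and 109 CPM (0.68 ± 0.24, unadjusted p = 0.0108). Without exercised replicates 2 and 4 the list had 8 higher (17.8%) and 3 lower (6.67%) members by the same rule. Without the 4 libraries it had 11 (24.4%) and 4 (8.89%). Shares of all genes were 2.91% and 3.69%, and 2.25% and 3.22%. A list of light-responsive repair genes had 11 measured members, 5 with positive and 6 with negative values, and a median of -0.03. PER2 and lonrf1 were higher without overlap, and the heat shock factor gene HSF2 had a negative value (log2 fold change -0.35 ± 0.13, unadjusted p = 0.0115). Without exercised replicate 1 the list had 2 higher and 3 lower members at an unadjusted p below 0.05. The gene lonrf1, a ring-finger protein, was at 52.7 ± 4.59 and 77.9 ± 14.6 CPM (log2 fold change 0.56 ± 0.14, adjusted p = 0.239).

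None of the 31 measured cholesterol biosynthesis genes was called, but 12 had an unadjusted p below 0.05 with a negative log2 fold change and 0 with a positive one, 38.7% beside 4.11% of all genes. The median was -0.16, or -0.255 to -0.064 when single 3-year libraries were left out, and 23 of 31 members had negative values. The members with small p run through the chain of enzymes. HMGCS1, which makes the precursor of mevalonate, was at 63.5, 38.2, 39.9, 41.6 and 37.1 CPM in unexercised and 23.7, 30.8, 28.8, 35.2 and 25.9 CPM in exercised libraries (log2 fold change -0.61 ± 0.19, adjusted p = 0.351). Unexercised replicate 1 stood above its group, and the groups did not overlap. SQLE (ENSDARG00000079946), which oxidises squalene, was at 25.3, 10.8, 16.87, 17.6 and 11.9 CPM against 5.74, 8.54, 6.14, 11.4 and 10.2 CPM (-0.97 ± 0.28, adjusted p = 0.33). Only exercised replicate 4 exceeded the lowest unexercised library.

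Enzymes of later steps had negative values too. MSMO1, a sterol methyl oxidase, was at 32.4 ± 6.61 and 22.2 ± 4.11 CPM (log2 fold change -0.55 ± 0.17, adjusted p = 0.369). CYP51A1, the lanosterol demethylase, averaged 34.2 and 24.5 CPM (-0.48 ± 0.17, unadjusted p = 0.0125). HSD17B7, a sterol ketoreductase, was at 20.2, 16.004, 32.5, 14.6 and 13.8 CPM against 12.8, 11.4, 11.4, 13.0 and 10.8 CPM, with no overlap (-0.71 ± 0.17, adjusted p = 0.239). The regulators srebf2 and insig1 lay close to 0 on the fold change scale, and other regulators of the pathway are not described here. The gene srebf2, the transcription factor of the cholesterol genes, averaged 116 and 111 CPM (-0.06 ± 0.11), and insig1, which holds it inactive, 44.5 and 47.9 CPM (0.10 ± 0.15). The count of members with negative values and an unadjusted p below 0.05 was 10 without exercised replicates 2 and 4, 10 without the 4 libraries, and 8 without exercised replicate 1. These were 32.3%, 32.3% and 25.8% of the list, beside 3.69%, 3.22% and 4.21% of all genes. As a mean over the list, unexercised replicates scored 4.07, 3.82, 3.83, 3.94 and 3.65 log2 CPM and exercised ones 3.54, 3.88, 3.60, 3.76 and 3.62, so that the groups overlapped.

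**Figure D2:**
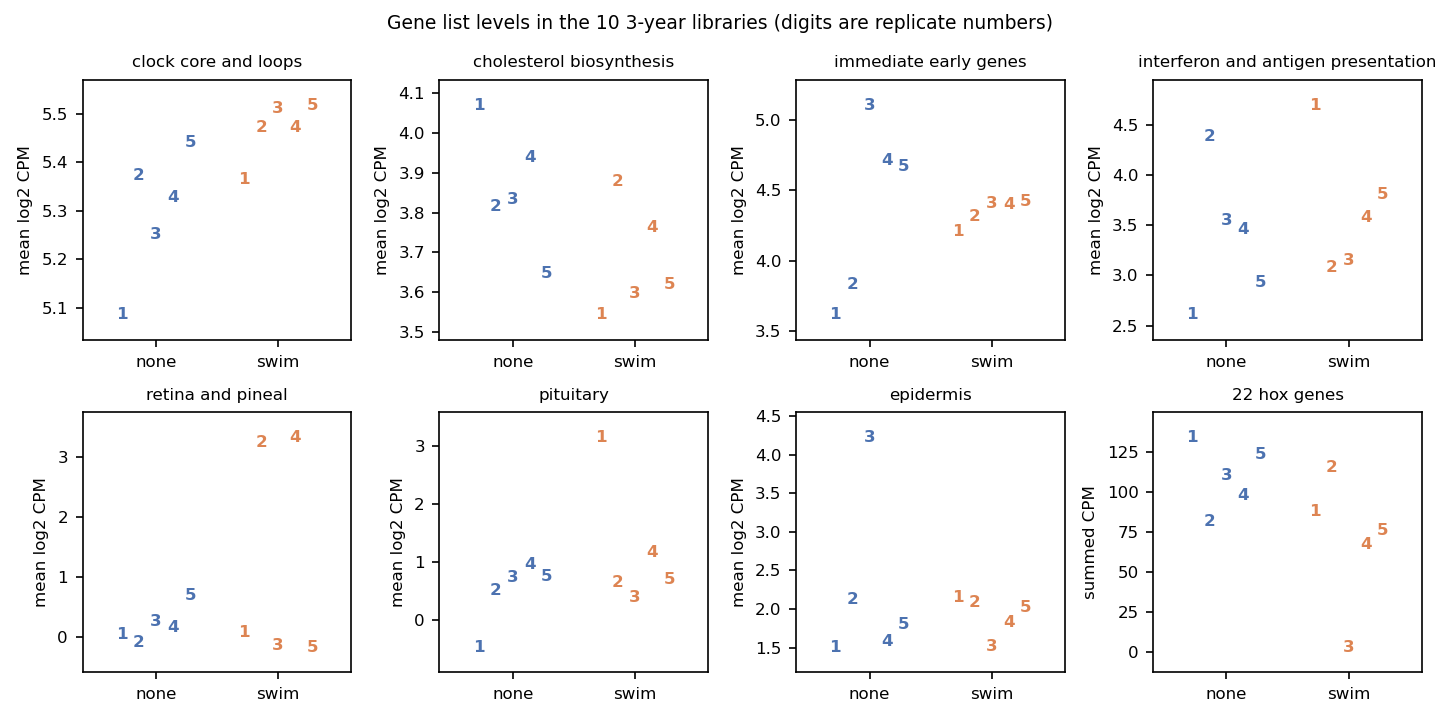
Levels of gene lists in the 10 3-year libraries, as mean log2 CPM of a list's genes or, for the hox genes, as summed CPM (vertical axes do not start at 0); digits are replicate numbers, with unexercised libraries on the left and exercised ones on the right of each panel. Exercised replicates 2 and 4 stand apart for retina genes, exercised replicate 1 for pituitary genes, unexercised replicate 3 for epidermis genes and exercised replicate 3 for hox genes, while clock and cholesterol scores overlap between the groups.

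No immediate early gene was called, more members had negative than positive values, and the spread among unexercised libraries was wide. Of 39 measured members, 8 had an unadjusted p below 0.05 with negative and 2 with positive log2 fold changes, 20.5% and 5.13%, and the list median was -0.21. Leaving out single 3-year libraries moved the median between -0.228 and -0.035, the latter without unexercised replicate 3. The zinc finger gene egr4 was at 37.7, 39.98, 324, 192 and 103 CPM in unexercised and 24.0, 29.9, 70.6, 47.0 and 51.5 CPM in exercised libraries. Unexercised replicates 1 and 2 thus lay within the exercised range and replicates 3 to 5 above it (log2 fold change -1.64 ± 0.53, adjusted p = 0.399). The same libraries stood low or high for egr1, at 207, 294, 895, 643 and 426 CPM against 143, 267, 383, 298 and 338 CPM (-0.79 ± 0.36, adjusted p = 0.578). BTG2, an antiproliferative gene, was at 21.8, 24.7, 108, 66.2 and 51.4 CPM against 21.0 to 29.2 CPM (-1.14 ± 0.39, adjusted p = 0.433), and ier2a at 9.42, 10.97, 40.6, 24.1 and 17.96 CPM against 8.73 to 13.4 CPM. FOS, a subunit of the AP-1 factor, averaged 39.6 and 15.7 CPM (-1.33 ± 0.53, unadjusted p = 0.0223). The neuronal activity factor NPAS4 (ENSDARG00000055752) was at 29.0, 54.2, 786, 429 and 431 CPM against 177, 153, 269.6, 181 and 187 CPM (-0.84 ± 0.56, adjusted p = 0.798), so that its exercised libraries lay between the low and the high unexercised ones. Without exercised replicates 2 and 4, members with negative values and an unadjusted p below 0.05 numbered 2 (5.13%, beside 3.69% of all genes). Without the 4 libraries, which include unexercised replicate 3, they numbered 0, beside 3.22% of all genes.

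None of the glucocorticoid targets was called, and 24 of them had positive values. The list had 36 measured members, 8 of them with an unadjusted p below 0.05 and a positive log2 fold change (22.2%) and 0 with a negative one, and a median of 0.16. That median was 0.0604 without exercised replicate 1 and at most 0.243 when other single libraries were left out. The steroid dehydrogenase gene hsd20b2, whose product takes part in the breakdown of cortisol in zebrafish, was at 3.91, 6.85, 3.97, 4.38 and 4.39 CPM without and 7.58, 8.09, 10.6, 24.1 and 17.99 CPM with exercise. Its groups did not overlap, and exercised replicates 4 and 5 were the highest (log2 fold change 1.54 ± 0.40, adjusted p = 0.266). KLF9, a direct target of the glucocorticoid receptor, averaged 13.4 and 48.7 CPM (1.86 ± 0.75, unadjusted p = 0.0225). ERRFI1, a brake on EGF receptor signalling, was at 20.3 ± 2.05 and 24.7 ± 3.64 CPM. GLUL (ENSDARG00000100003), glutamine synthetase, was at 317 ± 61.3 and 435 ± 93.0 CPM. Both overlapped between the groups. The 8 include the pituitary hormone precursor POMC (log2 fold change 4.55, unadjusted p = 0.0021, edgeR), whose value rested on a single library. Exercised replicate 1, the one high in pituitary genes, was at 169.7 CPM and the other 9 libraries between 0.398 and 2.65 CPM. Without exercised replicate 1 the list had 7 members with a positive value at an unadjusted p below 0.05 (19.4%). Without exercised replicates 2 and 4 the list had 3 members with a positive value by that rule, and without the 4 libraries 3. Each was 8.33% of the list, beside 2.91% and 2.25% of all genes.

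FoxO and insulin signalling had 49 measured genes and no call, with 7 members at an unadjusted p below 0.05 and a positive log2 fold change (14.3%) and 0 with a negative one. PRR5, a subunit of mTORC2 in mammals, was at 5.41, 13.4, 8.17, 10.3 and 10.7 CPM in unexercised and 13.9, 16.03, 19.0, 22.2 and 27.2 CPM in exercised libraries, without overlap (log2 fold change 1.04 ± 0.27, adjusted p = 0.264). The regulatory subunit gene of phosphoinositide kinase, pik3r3a, was at 19.6 ± 8.77 and 41.4 ± 10.9 CPM. FOXO1 (ENSDARG00000099555), the transcription factor that insulin keeps out of the nucleus, was at 37.5 ± 5.07 and 48.2 ± 5.65 CPM (0.36 ± 0.13, adjusted p = 0.445). RPTOR, which defines mTORC1, was at 42.3 ± 1.75 and 46.9 ± 3.30 CPM (0.15 ± 0.06, adjusted p = 0.486). Groups of the last 3 genes overlapped. The list had 4 positive and 2 negative members of this kind without exercised replicates 2 and 4, and 2 and 0 without the 4 libraries. For positive members the shares were 8.16% and 4.08%, beside 2.91% and 2.25% of all genes.

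No gene of the hypoxia response was called, and the signs were split evenly. Of 45 measured, 4 had an unadjusted p below 0.05 with positive and 4 with negative log2 fold changes, 8.89% each way. PFKFB4, an activator of glycolysis, was at 25.6, 50.6, 28.4, 34.6 and 53.1 CPM without and 93.7, 120.2, 57.3, 110.0 and 111 CPM with exercise (log2 fold change 1.35 ± 0.35, adjusted p = 0.266). The hypoxia-inducible factor gene hif1al was at 42.4, 82.3, 47.6, 49.0 and 65.9 CPM against 146, 110.0, 85.3, 149 and 143 CPM (1.14 ± 0.32, adjusted p = 0.284). In both genes all exercised libraries exceeded all unexercised ones, with exercised replicate 3 the closest. EPAS1 (ENSDARG00000008697), which encodes another hypoxia-inducible factor, was at 19.9 ± 3.20 and 29.8 ± 7.09 CPM, and PDK2 (ENSDARG00000020876), which keeps pyruvate out of mitochondria, at 26.8 ± 8.23 and 45.2 ± 8.48 CPM. Both vascular growth factor copies, VEGFA (ENSDARG00000034700) and VEGFA (ENSDARG00000103542), had negative values: the first was at 54.2 ± 4.17 and 45.1 ± 3.14 CPM (-0.27 ± 0.10, adjusted p = 0.448). P4HA1, a collagen hydroxylase, averaged 10.5 and 5.26 CPM. Without the 4 libraries, 0 members had positive values at an unadjusted p below 0.05, and 4 had negative ones. The shares of all genes in that fit were 2.25% and 3.22%, beside 8.89% negative in the list.

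Regulators of mitochondrial biogenesis were measured in 32 genes, with 5 positive and 1 negative at an unadjusted p below 0.05 (15.6% and 3.13%) and a median of -0.01. The coactivator gene ppargc1b was at 94.9, 80.5, 77.2, 78.0 and 88.4 CPM in unexercised and 125, 104, 132, 143 and 154 CPM in exercised libraries. It did not overlap between the groups but missed the threshold (log2 fold change 0.65 ± 0.18, adjusted p = 0.284). Its relative PPARGC1A was at 8.79, 13.6, 7.57, 11.4 and 12.6 CPM against 10.7, 18.1, 14.5, 11.4 and 21.4 CPM, which overlapped (0.50 ± 0.20, adjusted p = 0.487). PPARD (ENSDARG00000044525), a nuclear receptor for fatty acids, was at 4.14 ± 0.566 and 6.18 ± 0.877 CPM, and the inner membrane protease YME1L1 (ENSDARG00000075192) at 29.4 ± 2.15 and 37.4 ± 6.75 CPM. Without the 4 libraries, 2 members of the biogenesis list were positive and 2 negative by the same rule. That was 6.25% each way, beside 2.25% and 3.22% of all genes. Among nuclear genes of the respiratory chain, of 42 measured, 1 was positive and 1 negative at an unadjusted p below 0.05, and the median was -0.04. That was 2.38% each way, beside 3.95% and 4.11% of all genes.

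The Polycomb list, which holds SUZ12, had 34 measured genes and a median log2 fold change of 0.00. At an unadjusted p below 0.05, 5 members were negative and 2 positive (14.7% and 5.88%). EED, a partner of SUZ12 in the same complex, was at 32.9, 45.3, 31.7, 33.5 and 18.4 CPM without and 15.5, 14.9, 27.3, 16.5 and 19.6 CPM with exercise. Unexercised replicate 5 lay within the exercised range and the other 4 unexercised libraries above it, and the gene did not pass (-0.79 ± 0.19, adjusted p = 0.239). EZH2, the catalytic subunit, averaged 10.01 and 11.9 CPM, of the opposite sign (0.25 ± 0.11, unadjusted p = 0.0314). KDM6B, a demethylase that removes the mark the complex sets, was at 87.9, 84.7, 84.2, 81.6 and 122 CPM against 165, 156, 131, 162 and 187 CPM, without overlap (0.80 ± 0.28, adjusted p = 0.433). The subunit phc1 of the other main Polycomb complex was at 23.7 ± 2.33 and 19.0 ± 2.21 CPM. Without the 4 libraries, 2 members of the list were negative (5.88%, beside 3.22% of all genes) and 0 positive by the same rule.

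**Figure D3:**
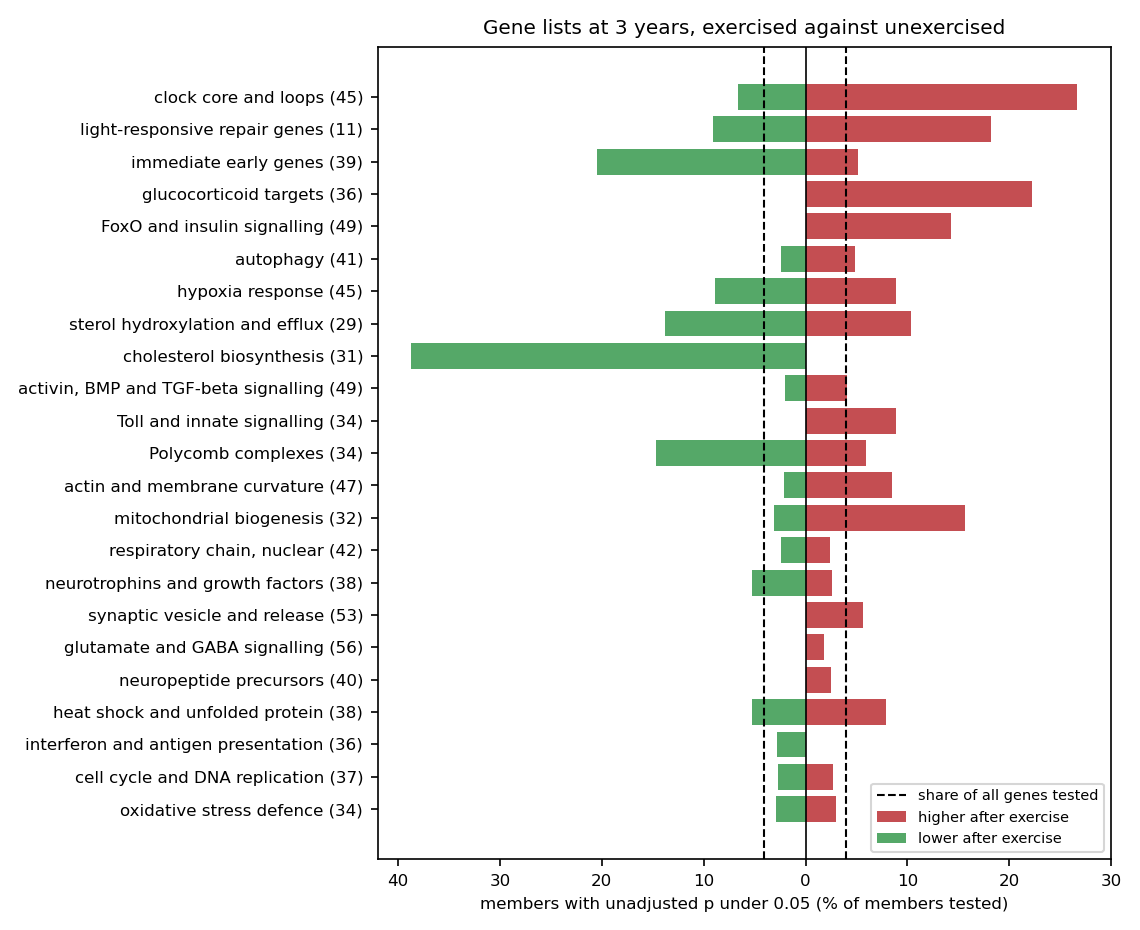
Share of each list's measured genes (number in brackets) with an unadjusted p below 0.05, to the right for higher and to the left for lower levels in exercised 3-year fish; dashed lines are the shares over all 21148 genes tested, 3.95% and 4.11%. The clock list reaches 26.7% on the higher side and the cholesterol biosynthesis list 38.7% on the lower side, and several lists lie near the lines.

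Genes of innate sensing had 3 of 34 members with an unadjusted p below 0.05, all positive (8.82%): PELI3, tlr5a and tlr18. Of all genes, 3.95% were higher and 4.11% lower by that rule, 8.07% in all. The Toll-like receptor genes tlr5a and tlr18 were at 1.11 ± 0.145 against 1.65 ± 0.284 CPM and 2.16 ± 0.336 against 3.25 ± 0.72 CPM. Actin and membrane curvature genes had 4 positive and 1 negative of 47 (8.51% and 2.13%). WASF3, which activates actin branching, was at 50.6 ± 3.75 and 57.0 ± 4.21 CPM. The synaptic vesicle list had 3 of 53, all positive (5.66%, beside 3.95% of all genes higher and 8.07% either way). SYT11 (ENSDARG00000056105), a synaptotagmin, was at 54.4, 57.4, 54.6, 53.8 and 58.5 CPM against 60.4, 70.9, 70.4, 79.3 and 85.1 CPM, without overlap (0.39 ± 0.12, adjusted p = 0.382). The activin and BMP list had 2 positive and 1 negative of 49, 6.12% in all and so under the 8.07% of all genes. INHBA had the smallest p there, and its receptor ACVR2A was at 90.3 ± 3.08 and 113 ± 18.5 CPM (0.32 ± 0.11, adjusted p = 0.441). Glutamate and GABA signalling (1 of 56), neuropeptide precursors (1 of 40), autophagy (3 of 41), cell cycle (2 of 37) and oxidative stress defence (2 of 34) had shares under the 8.07% of all genes.

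Genes often followed in exercise research did not pass. BDNF, the brain-derived neurotrophin, was at 41.8, 32.6, 56.2, 46.4 and 67.3 CPM in unexercised and 42.9, 64.3, 67.3, 69.2 and 68.2 CPM in exercised libraries (log2 fold change 0.35 ± 0.19, adjusted p = 0.694). The exercised libraries clustered at the top of the unexercised range except for replicate 1. IGF1, the insulin-like growth factor, was at 6.64 ± 0.87 and 6.21 ± 0.883 CPM (-0.10 ± 0.13, adjusted p = 0.933). The proliferation gene PCNA was at 53.1 ± 4.61 and 56.1 ± 4.28 CPM (0.08 ± 0.07, adjusted p = 0.899). The cell cycle antigen mki67 was at 4.51, 10.6, 6.92, 5.32 and 4.85 CPM against 19.1, 4.45, 8.002, 9.22 and 8.48 CPM (0.61 ± 0.30, adjusted p = 0.638), with the top value in exercised replicate 1. GFAP, a filament of radial glia, was at 107 ± 12.9 and 80.6 ± 35.0 CPM (-0.40 ± 0.21, adjusted p = 0.668). Among the fits named here, it passed with a lower level only in the one without the 4 libraries (log2 fold change -1.10, adjusted p = 0.0492, edgeR). That fit keeps only replicates 3 and 5 of the exercised group. Of the brain cell lists, neurons had 2 of 28 members (7.14%) with a positive value at an unadjusted p below 0.05, and 0 with a negative one. Over that list 17 of 28 members had negative values, and the median was -0.05. Radial glia had 2 of 22 (9.09%) and endothelium and pericytes 1 of 23 (4.35%), all positive, and microglia 0 of 24. Of all genes, 3.95% were higher and 4.11% lower by that rule. Without exercised replicates 2 and 4, neurons, radial glia, and endothelium and pericytes each had 0 members in either direction. Shares of all genes in that fit were 2.91% and 3.69%. Without the 4 libraries, radial glia had 0 positive and 3 negative members (13.6%, beside 3.22% of all genes). Oligodendrocytes had 2 of 17 (11.8%), both negative, although 11 of the 17 had positive values and the list median was 0.02. Without exercised replicates 2 and 4 that list had 0 of 17. Those 2 genes were the lineage factors OLIG2 (105 ± 18.9 and 74.2 ± 14.4 CPM, adjusted p = 0.453) and SOX10 (61.9 ± 5.7 and 48.1 ± 9.96 CPM, adjusted p = 0.578).

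Interferon and antigen presentation genes had 0 of 36 members with a positive value at an unadjusted p below 0.05, although 31 had positive log2 fold changes and the median was 0.19. Their level varied widely within both groups. The list score was 2.61, 4.39, 3.55, 3.46 and 2.93 in unexercised and 4.70, 3.08, 3.15, 3.58 and 3.81 in exercised replicates. Unexercised replicate 2 and exercised replicate 1 were the highest, and these were also the highest for the microglia list, at 3365 and 3881 summed CPM beside 1336 to 2354 in the other 8. Without exercised replicate 1 the interferon list's median was -0.06. The class I histocompatibility gene mhc1uba was at 9.19, 7.75, 2.497, 256 and 173 CPM in unexercised and 9.75, 2.28, 1.63, 5.07 and 4.07 CPM in exercised libraries. Its log2 fold change of -4.30 ± 1.00 (adjusted p = 0.232) rested on unexercised replicates 4 and 5, and the values of such multigene families are uncertain.

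Other genes with large fold changes had an uneven spread over libraries too. The otoancorin gene otoa, known from the inner ear, was at 118, 274, 112, 3.84 and 3.59 CPM in unexercised and 4.21 to 8.45 CPM in exercised libraries (log2 fold change -4.18 ± 1.17, adjusted p = 0.284). FXYD family gene fxyd7, a modulator of the sodium pump, was at 36.6 to 82.2 CPM without and 27.9, 28.6, 21.3, 0.682 and 0.673 CPM with exercise, which did not overlap (-1.79 ± 0.69, adjusted p = 0.484). Exercised replicates 4 and 5 made up the low end. GATM, which makes the precursor of creatine, was at 4.74, 3.63, 2.84, 16.8 and 24.9 CPM against 28.2, 58.7, 28.5, 26.0 and 45.0 CPM, without overlap (1.82 ± 0.71, adjusted p = 0.486). Levels of fgf23, a hormone of phosphate balance in mammals, were 0.108 to 0.861 CPM and 0.92 to 1.305 CPM (1.89 ± 0.80, adjusted p = 0.537). HOXB7, a hox gene of the posterior axis, was at 1.06 to 1.37 CPM in unexercised and 0.368, 0.648, 0.0327, 0.0297 and 0.556 CPM in exercised libraries (-1.89 ± 0.84, adjusted p = 0.574). Among low-level genes without overlap, gdf6a (1.04 ± 0.361 and 0.519 ± 0.187 CPM), a BMP-type growth factor, and ADAMTSL2 (1.095 ± 0.196 and 0.554 ± 0.18 CPM), a matrix protein, had negative values.

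The exercise difference at 3 years was then set beside that at 1 year, which shares no library with it. At 1 year 4 genes passed (0.0189%), none of them among the 6 called at 3 years. Of the 6 genes, all had the same sign at 1 year, as did 59.4% of all genes tested and 27 of the 30 genes with the smallest p at 3 years. Among the 6, 2 also had an unadjusted p below 0.05 at 1 year (edgeR), beside 1802 of all 21148 genes. The 1-year values of PER2 and cyp27a1.1 were close to 0, at 0.05 ± 0.14 and -0.09 ± 0.08. Of genes without overlap at 3 years, 144 of the 183 higher ones and 141 of the 185 lower ones had the same sign at 1 year. INHBA, rps6kb1a, ssh2b, heg1 and tinagl1 had 1-year log2 fold changes of 1.304, 0.96, 1.07, 0.66 and 0.94, near those at 3 years, with adjusted p of 0.0721 to 0.103. The exceptions in sign were spaw (-0.02 at 1 year), gbp3 (-0.03) and tmem79b (0.51).

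A test of the difference between the exercise effects called a single gene of 21148 (0.00473%), cyp27a1.1. At 1 year it was at 18.5 ± 1.70 CPM in unexercised and 17.4 ± 0.955 CPM in exercised fish, and the 3-year effect was lower than the 1-year effect by a log2 value of -0.73 ± 0.11 (adjusted p = 0.0485, edgeR). This call was near the threshold, and it was lost in 9 of the 10 fits that left out a 3-year library (all but the one without exercised replicate 5) and in 9 of the 10 that left out a 1-year library (all but the one without unexercised replicate 3). For PER2 the difference was 0.91 ± 0.19 (adjusted p = 0.696). The 1-year unexercised libraries were at 141 to 165 CPM apart from replicate 5, at 269.7 CPM. Without that library the difference was smaller, at 0.70, with a 1-year log2 fold change of 0.26, and its adjusted p was 0.0607 (edgeR). The same library was high for BAIAP2 (ENSDARG00000103333), at 130.4 CPM beside 59.2 to 70.7 CPM in the other 4 of its group. Without it, the 1-year log2 fold change of that gene was 1.03 (adjusted p = 0.00419) and that of PELI3 0.51 (adjusted p = 0.0133). Clock genes had the same sign at both ages in 35 of 45 cases and immediate early genes in 29 of 39, beside 59.4% of all genes. For the difference between ages, 1004 of all 21148 genes had an unadjusted p below 0.05 (edgeR). By that rule there were 11 of 45 clock genes, 2 of 39 immediate early genes and 7 of 11 light-responsive repair genes. The light-responsive list's median was -0.47 at 1 year beside -0.03 at 3 years. The cholesterol list's median was 0.05 at 1 year beside -0.16 at 3 years, with 9 of 31 members by that rule. For HSD17B7 the 1-year levels were 17.7 ± 1.49 and 18.8 ± 1.44 CPM, and the difference between ages did not pass (-0.79 ± 0.24, adjusted p = 0.982).

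**Figure D4:**
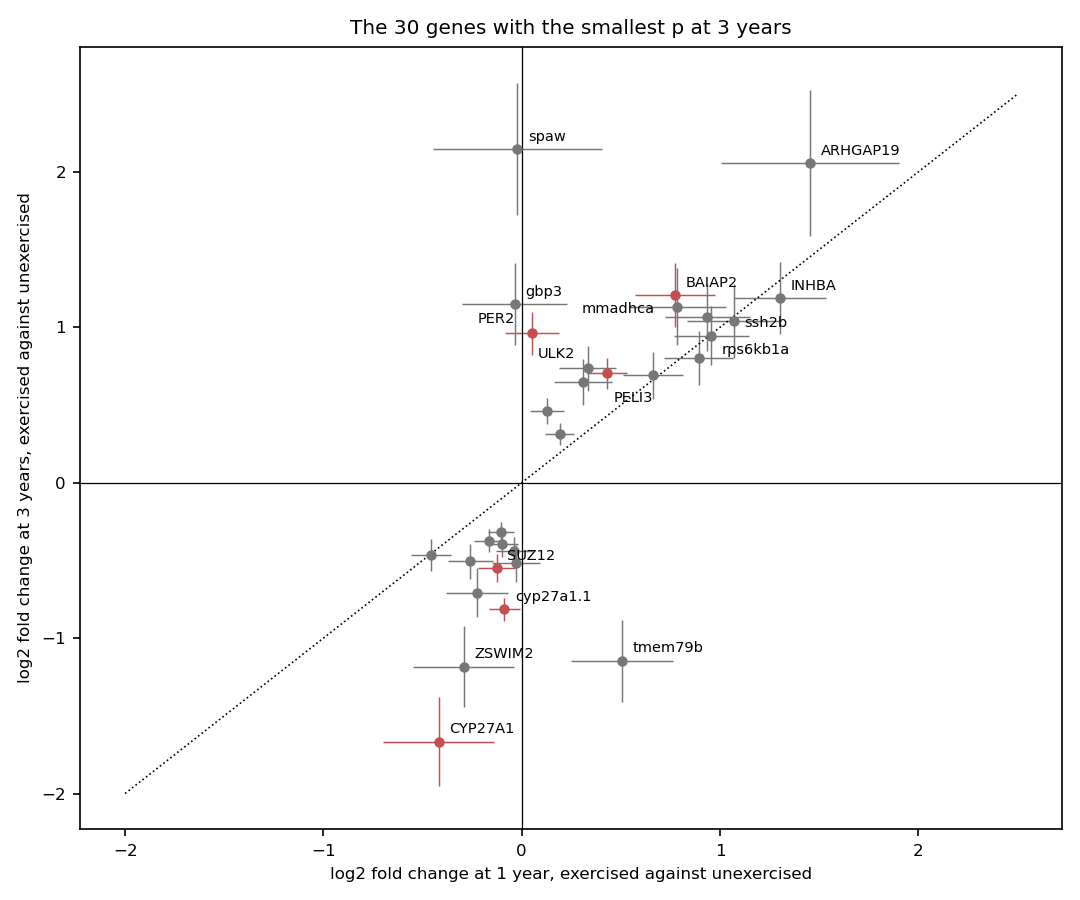
Log2 fold change of exercise at 1 year (horizontal) and 3 years (vertical) for the 30 genes with the smallest p at 3 years; bars are standard errors, red points are the 6 called genes, and the dotted line marks equal values. Points such as INHBA (1.304 and 1.19) lie near the line, and cyp27a1.1 (-0.09 and -0.82) and PER2 (0.05 and 0.96) lie near the vertical line at 0.

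The number of genes that passed depended on the tool. DESeq2 called 118 of 20932 genes with an adjusted p (0.564%), 59 higher and 59 lower (0.282% each), among them all 6 of edgeR's. Of the 118, 70 did not overlap between the groups and 48 did, where 1.74% of all genes were without overlap. Limma voom with quality weights called 5 genes (0.0236%), 4 of them among the 6. The edgeR fit on the 3-year libraries alone called 7 (0.0344%), 3 of them among the 6. The genes found in all these fits were cyp27a1.1, PER2 and PELI3. DESeq2's calls included HLF and NR1D2 of the clock list, all 3 CYP27A1 copies named above, EED, hsd20b2, PRR5, PFKFB4 and HSD17B7. Genes with an uneven spread over libraries were called as well, such as mhc1uba, otoa and the muscle gene myhz1.1. The last was at 10.1 and 48.7 CPM in exercised replicates 1 and 4 and at 0.287 to 0.669 CPM in the other 3-year libraries.

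**Figure D5:**
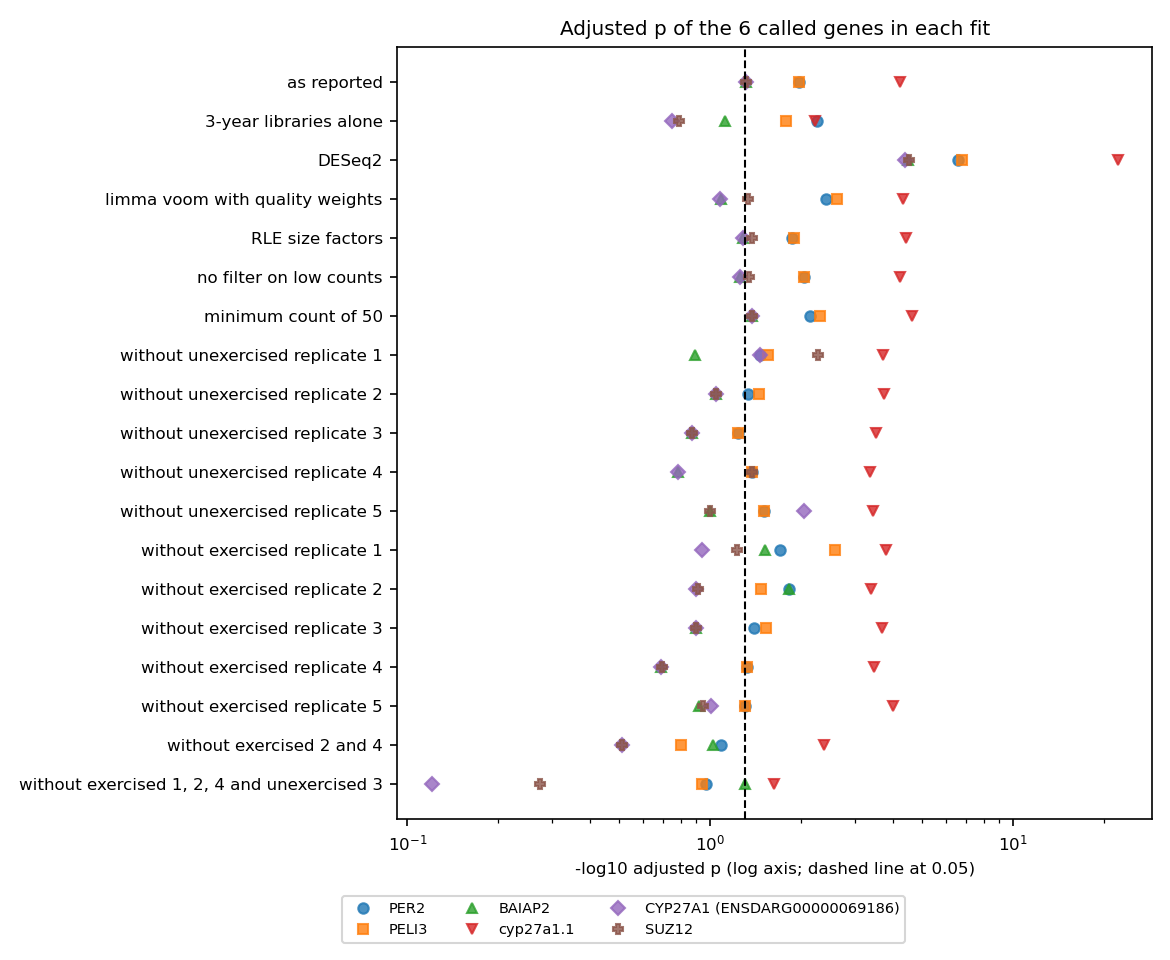
Adjusted p of the 6 called genes in each fit, as -log10 on a log axis (horizontal), with the dashed line at 0.05; rows are the fit as reported, other tools and settings, and fits that leave out libraries. The downward triangles of cyp27a1.1 lie right of the line in each row, while SUZ12 and CYP27A1 (ENSDARG00000069186) lie left of it in most fits that leave out a library.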

How the data were processed

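Brain RNA of 20 zebrafish samples was sequenced after TruSeq RNA v2 library preparation, a kit that does not mark strand, and the authors deposited raw read counts per gene for 32105 Ensembl genes. Per the submitters' processing notes, the build was GRCz10, and the tools named are STAR 2.4.1d, bcl2fastq 1.8.4 and featureCounts 1.4.6-p4, with no settings. A deposited table of RPKM values was not used. The 3-year libraries held 25.2 to 34.6 M counts.

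From the counts, genes were kept with edgeR 4.0.16 (R 4.3.3) when they reached a minimum count of 10 in enough libraries and a total of 15, which left 21148 genes. Libraries were scaled by TMM, and a mean per group (n = 5) was fitted over all 20 libraries with the quasi-likelihood test, so that the 4 groups shared an estimate of spread with 16 residual degrees of freedom. Contrasts were exercise at 3 years, exercise at 1 year and their difference, with Benjamini-Hochberg adjustment over all genes and a threshold of 0.05. The script was tested on simulated data. CPM values are scaled by TMM, and list scores add a prior count of 2. Of 32105 identifiers, 26269 have a symbol, and 4301 of these share it with another identifier and are printed with it. Alternatives were DESeq2 1.42.0, limma 3.58.1 (voom with quality weights), other scaling, filters and leaving out libraries. Reads of overlapping genes on opposite strands cannot be told apart.

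The compared groups and gene lists were chosen with earlier results of these data known. Named genes are those called and, up to 30 genes, the next smallest p among genes with a symbol and at least 1 CPM. Further ones are up to 4 members per list with an unadjusted p below 0.05, the 8 largest fold changes each way without overlap, and a few genes always named. Other list members, such as npas2 and KLF9, are given for their roles and were picked after their values were seen.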

Additional observations from a re-analysis of the deposited data

Results flagged for a closer look

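In groups of 5 libraries, single libraries far from the other 4 of their group were sought with Dixon's ratio, whose critical value is 0.71. Chance marks about 5% of groups if their values are independent and normally distributed, and 19 of the 246 groups looked at were marked. These groups are CPM values of genes named from the same libraries, and list scores that share some of those genes. The 5% is therefore only a rough reference for the count of 19.

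Among the genes named, unexercised replicate 2 lay above its group for ssh2b (31.3 CPM), gbp3 (23.6 CPM), hsd20b2 (6.85 CPM) and fgf23 (0.861 CPM), and for the score of Toll and innate signalling (2.74). Unexercised replicate 1 was high for HMGCS1 (63.5 CPM) and low for the mitochondrial biogenesis score (3.67) and the neuropeptide precursor score (2.49). Unexercised replicate 3 was high for gdf6a (1.66 CPM) and the epidermis score (4.22) and low for IGF1 (5.14 CPM). Unexercised replicate 5 was high for KDM6B (122 CPM).

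Exercised replicate 1 was high for POMC (169.7 CPM), ALDH1L2 (16.85 CPM), the pituitary score (3.15) and the cell cycle score (2.397), and low for BDNF (42.9 CPM). Exercised replicate 2 was high for si:dkey-51a16.9 (23.4 CPM), and exercised replicate 5 for CYP27A1 (ENSDARG00000088013) at 11.9 CPM.

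The exercise effect on cyp27a1.1 differed between ages by a log2 value of -0.73 (adjusted p = 0.0485, edgeR), with -0.82 at 3 years and -0.09 at 1 year.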

How the results depend on the processing

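DESeq2 called 118 genes at 3 years, 59 higher and 59 lower, and 12 genes for the difference between ages. The fit on the 3-year libraries alone called 6 higher genes and 1 lower. Without exercised replicates 2 and 4 the count was 1, with 0 higher and 1 lower, and 0 genes differed between ages. In the fit without a filter on low counts, 0 genes differed between ages too. That fit and the fit with RLE scaling each called 4 genes at 3 years. Both lost BAIAP2 (ENSDARG00000103333) and CYP27A1 (ENSDARG00000069186), each at an adjusted p of 0.0558 without the filter and 0.0515 with RLE (edgeR). Fits that left out a library called 1 to 7 genes at 3 years, 0 to 4 higher and 1 to 3 lower, and 0 to 1 for the difference between ages. The low counts of 1 came without unexercised replicate 3 and without exercised replicate 5. Without the 4 libraries that stood apart in retina, pituitary or epidermis genes, the median log2 fold change was -0.026 for activin, BMP and TGF-beta signalling, -0.21 for retina and pineal, -1.99 for skeletal muscle and 0.034 for epidermis. The retina median was -0.24 without exercised replicates 2 and 4, and leaving out single libraries moved the epidermis median between -1.24 and 0.14. The log2 fold change of POMC was between -0.016 (without exercised replicate 1) and 4.87 when single libraries were left out, and -0.53 without the 4 libraries. The cause of the other changes was not tested. No paired analysis was possible because the replicate numbers follow accession order and pair no samples. Depth limits low-level genes such as spaw, fgf23 and HOXB7, whose values rest on few reads.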
